A study of Mus musculus with 38 samples.

Results

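The regions described here are stretches of chromatin where H3K27me3 was called in all 3 IκBα-KO libraries and in none of the 3 IκBα-WT libraries, a call being a stretch enriched over input at a false discovery rate (FDR) under 0.05. They were selected on the measured H3K27me3 calls themselves: the 6 call lists were merged wherever calls overlapped by at least 1 bp, and 809 of 53730 merged regions on chromosomes 1 to 19 met this pattern. Segments of chromosomes 2 (165 to 171 Mb), 8 (40 to 129 Mb) and 12 (103 to 119 Mb), were left out by the same rule, which treats the input reads of the genotypes as unequal there. The cells were mouse embryonic stem cells (mESCs) of the ES-E14TG2a line, kept in serum with leukaemia inhibitory factor and taken at 0 h. IκBα-WT clones (genotype label IkappBalpha+/+) carried a non-targeting scrambled guide RNA. IκBα-KO clones (IkappaBalpha-/-) were single clones edited in exon 1 of Nfkbia, the gene of the NF-κB inhibitor IκBα. Each of 5 histone modifications was profiled in 3 WT and 3 KO libraries, which the methods describe as separate clones, so 30 of 38 samples were ChIP libraries and 8 were inputs.

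H3K27me3 is the trimethyl mark that Polycomb repressive complex 2 deposits on histone H3. In mESCs it is best known from CpG-rich promoters of silent developmental genes, and it also spreads thinly over intergenic chromatin. H3K27ac occupies the same lysine and marks active promoters and enhancers, H3K4me1 marks enhancers, H3K4me3 marks promoters, and H3K9me3 marks constitutive heterochromatin and the methylated alleles of imprinting control regions.

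Most gained regions were poor in CpG beside other H3K27me3 regions, though above the average of the chromosomes, and a small number held a dense CpG cluster. The 5 stretches of 200 bp printed here show that contrast. Each is the window with the most CpG in its region, read from the forward strand of GRCm38, with every CG dinucleotide in capitals. Galnt18 and Cd244a hold the gained regions with the largest called length, Nap1l5 and Peg13 are imprinted, and Spag16 is a promoter that carried H3K4me3 in WT cells. The windows held 7 CpG at Galnt18, 7 at Cd244a, 23 at Nap1l5, 17 at Peg13 and 23 at Spag16.
Galnt18 intron, chr7:111656431-111656630: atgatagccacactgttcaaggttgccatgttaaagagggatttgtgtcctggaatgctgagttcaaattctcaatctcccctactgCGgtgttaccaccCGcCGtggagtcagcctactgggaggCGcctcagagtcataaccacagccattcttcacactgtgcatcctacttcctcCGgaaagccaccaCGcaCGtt
Cd244a upstream sequence, chr1:171553811-171554010: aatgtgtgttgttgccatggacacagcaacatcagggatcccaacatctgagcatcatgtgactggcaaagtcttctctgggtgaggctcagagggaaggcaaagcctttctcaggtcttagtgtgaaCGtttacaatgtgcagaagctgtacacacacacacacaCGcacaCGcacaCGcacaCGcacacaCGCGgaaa
Nap1l5 5′ part, chr6:58906821-58907020: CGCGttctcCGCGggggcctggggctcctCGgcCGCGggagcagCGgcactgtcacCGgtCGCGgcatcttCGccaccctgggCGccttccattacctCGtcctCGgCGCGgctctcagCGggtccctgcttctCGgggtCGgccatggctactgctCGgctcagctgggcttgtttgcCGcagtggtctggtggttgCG
Peg13 5′ part, chr15:72809921-72810120: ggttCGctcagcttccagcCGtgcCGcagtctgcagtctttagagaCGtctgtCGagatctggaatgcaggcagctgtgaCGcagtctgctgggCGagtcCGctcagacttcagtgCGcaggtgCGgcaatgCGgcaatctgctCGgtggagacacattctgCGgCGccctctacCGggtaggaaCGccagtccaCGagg
Spag16 start, chr1:69826841-69827040: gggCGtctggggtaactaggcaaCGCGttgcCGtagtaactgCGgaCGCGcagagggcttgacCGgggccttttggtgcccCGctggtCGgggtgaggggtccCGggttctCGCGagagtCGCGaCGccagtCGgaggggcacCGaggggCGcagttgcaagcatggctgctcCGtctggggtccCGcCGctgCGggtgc

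The gained regions were narrow and weakly enriched. Their median width was 5200 bp (range 1400 to 28000 bp), against 9600 bp for the 22082 other H3K27me3 regions, which were called in all 3 KO and at least 1 WT library. The 572 regions with the opposite pattern, called in 3 of 3 WT and 0 of 3 KO libraries and here named lost, had a median of 4800 bp. Widths over 10000 bp were found in 36 gained regions (4.45%) and in 46.6% of the other regions. The median ChIPCount over InputCount of the gained regions was 1.42 in KO 1, 1.45 in KO 2 and 1.40 in KO 3. After division by each library's ChIP-to-input depth ratio, which the fold changes in the lists fix exactly, the medians were 1.57, 1.73 and 1.56, beside 1.83, 2.02 and 1.80 in the other regions. A depth-scaled enrichment of at least 2 in all 3 KO libraries was reached by 41 gained regions (5.07%) and by 28.9% of the other regions. These values come from the calls that chose the members, so they describe the regions and were given no test.

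**Figure D1:**
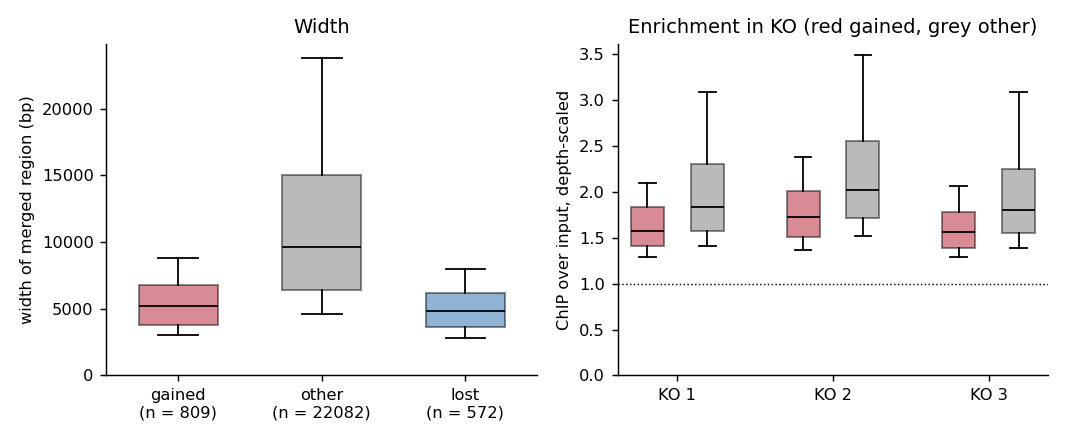
Width in bp (left) and depth-scaled ChIP over input in the 3 KO libraries (right), with boxes from the 25th to the 75th percentile, the median as a line, whiskers from the 10th to the 90th percentile and a dotted line at equal ChIP and input. Gained regions have a median width of 5200 bp and median enrichments of 1.57, 1.73 and 1.56, all under the medians of the other regions.

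Each value rested on few reads. A gained region held a median of 95 ChIP reads and 68 input reads in KO 1, 81 and 57 in KO 2, and 90 and 65 in KO 3. All 3 libraries called some of the same bases in 768 of 809 regions (94.9%), yet bases called in all 3 made up 37.8% of the gained sequence. The caller's FDR was under 0.01 in every KO library for 667 regions (82.4%).

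Regions just outside the rule had like values. Next to the 809 regions stood 1598 regions called in 3 KO and 1 WT library, whose median width was 5800 bp, and 2302 regions called in 2 KO and 0 WT libraries, with a median of 4200 bp. The lowest depth-scaled enrichment among the KO libraries that called a region had a median of 1.44 in the gained regions, 1.47 in the first of these sets and 1.47 in the second. A WT call lay within 5000 bp of 406 gained regions (50.2%) and within 20000 bp of 692 (85.5%). WT reads at the gained regions were not analysed here, because the lists hold reads of called regions alone. Input reads per kb in regions called in both genotypes were higher in KO by a median of 0.17 on the log2 scale, and by 0.18 within 20000 bp of a gained region. Their part in the gains was not tested. Reads in calls ran from 8860024 to 10870082 per H3K27me3 ChIP library, and the ChIP-to-input depth ratio was 0.839 to 0.905 in KO and 1.00 to 1.15 in WT.

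By called length summed over the KO libraries, the largest gain lay inside Galnt18, a Golgi enzyme that starts mucin-type O-glycosylation. It ran over 28000 bp of intron (chr7:111652001-111680000). ChIP reads over input reads there were 441 over 302 in KO 1, 518 over 328 in KO 2 and 406 over 285 in KO 3, and the nearest WT call was 1000 bp away. Introns of Pde10a (chr17:8634601-8650800), a cyclic nucleotide phosphodiesterase, Camta1 (chr4:151563401-151579000), a calmodulin-binding transcription activator, and Abtb2 (chr2:103578801-103593200) followed among the 10 largest, with depth-scaled enrichments of 1.24 to 1.51. Slc7a14 (chr3:31232801-31241200), which encodes a member of the cationic amino acid transporter family, had its gain over a coding exon at 1.57, 1.80 and 1.46. So did Colec12 (chr18:9865801-9881200), a scavenger receptor, at 1.12, 1.20 and 1.10. ChIP reads over input reads at Colec12 were 476 over 471, 303 over 300 and 483 over 490. The remaining 3 of the 10 lay outside protein-coding genes, nearest to Fam19a5, Dok5 and Ripk4, and the one near Dok5 (chr2:171051801-171061800) sits at the edge of a left-out segment. The gain over Cd244a (chr1:171553601-171570200), an immune receptor gene, also had a high input, with 813 ChIP and 849 input reads in KO 2. KO 1 held 714 ChIP and 657 input reads there, an input density of 53.9 reads per kb beside a median of 18.2 over the gained regions, and its depth-scaled enrichment was 1.20, 1.14 and 1.15.

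Of the 10 steepest gains, 9 were narrower than the median gained region. Among regions with at least 5 input reads in every library, the highest minimum of ChIP over input was found at Nap1l5 (2.59; 5800 bp wide), followed by a coding exon of Tnxb (2.58; chr17:34711601-34713000), the gene of the matrix protein tenascin-X. At Tnxb the ratio was 2.63 in KO 1, 6.40 in KO 2 and 2.58 in KO 3, and the KO 2 value rests on 32 ChIP and 5 input reads. The promoter window of Fermt1 (chr2:132950401-132952400), an integrin activator of epithelia, had 60 over 25, 56 over 20 and 75 over 27 reads. A coding exon of Dido1 (chr2:180658201-180662000), a chromatin reader of H3K4 methylation, had 141 over 58, 191 over 80 and 192 over 68 reads. H3K27ac covered 3400 of that gain's 3800 bp in WT and 3800 bp in KO, and H3K4me1 covered 3800 bp in both. The start of Spag16 (chr1:69826001-69827800), an axoneme protein, had 55 over 25, 57 over 25 and 64 over 26 reads. The start of Cdh12 (chr15:20448201-20451200), a neuronal cadherin, had 52 over 24, 68 over 30 and 95 over 40 reads, with its nearest WT call 657200 bp away. The other 4 lay outside protein-coding genes, nearest to Zfp516, Skor2, Tent4a and St3gal1.

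Windows around gene starts held few of the gains. A promoter window, reaching 5000 bp upstream and 100 bp into a protein-coding gene from its 5′ end in GENCODE M21, was met by 75 gained regions (9.27%, 95% Wilson interval 7.46 to 11.5), by 30.2% of the other regions and by 21.0% of the lost regions. Coding exons were met by 23.2% of the gained and 41.3% of the other regions. Introns alone, with no exon and no promoter window, held 178 gained regions (22.0%) and 9.98% of the other regions. Outside protein-coding genes and their windows lay 400 gained regions (49.4%, 46.0 to 52.9), against 39.3% of the other regions. These intervals cover counting error only, and neighbouring regions are not independent, so the shares were given no test.

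Genes that hosted a gain were long. A gained region lay in the body of 354 of 19844 protein-coding genes outside the left-out segments (1.78%), and the median length of these genes was 108274 bp, beside 24924 bp for genes with another H3K27me3 region and 17555 bp for all. Long genes also offer more sequence to overlap. Genes over 100000 bp held 30.7% of the bases of the gained regions, 22.1% of the bases of the other regions and 20.4% of those of the lost regions. Kcnma1, which encodes the large-conductance calcium-activated potassium channel, held 4 gained regions in 725061 bp, and 6 genes held 3 each, among them Col14a1, a collagen gene, in 213054 bp. Fgfr2 had 6, but the annotation's record of it spans 2960900 bp and takes in neighbouring genes, so that count is uncertain. These genes were chosen after their values were seen.

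The 10 promoter gains with the largest summed called length touched genes of unlike kinds. They included Mos (chr4:3876201-3885000), the kinase that arrests oocytes in meiosis, at depth-scaled enrichments of 1.32, 1.45 and 1.47, and Mx1 (chr16:97459401-97466600), an interferon-induced antiviral GTPase, at 1.76, 1.92 and 1.51. Nfe2l1 (chr11:96834001-96841000), a transcription factor of proteasome genes, reached 1.31, 1.40 and 1.34. H3K27ac covered 6000 of that gain's 7000 bp in WT and 7000 bp in KO, and H3K4me1 covered 7000 bp in both. The others were the windows of Cd244a, the odorant receptor gene Olfr9, Gm4791, Ppef2, Wfdc17, the sugar transporter gene Slc5a4b and Gm10234.

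The gains met few of the developmental and pathway genes listed. Of 17 naive pluripotency genes, 16 genes of primed cells, 18 germline genes, 30 Polycomb genes and 15 NF-κB pathway genes outside the left-out segments, none met a gained region in body or promoter window. Of 28 germ layer genes 1 did (3.57%), beside 1.96% of all protein-coding genes (388 of 19844), so lists of this size would hold few or none at the share of all genes. This was Gata6, a regulator of primitive endoderm. Its gain (chr18:11083801-11089000) met coding sequence at the 3′ end of the gene, which ends at 11085635, and ran past it. It had 115 over 87 reads in KO 1, 111 over 87 in KO 2 and 75 over 50 in KO 3. H3K27ac called in at least 2 of 3 libraries covered 800 bp of this gain in WT and 0 bp in KO. Other H3K27me3 regions, called in WT cells too, met 46.4% of all protein-coding genes in body or promoter window. They met 26 of these 28 genes, 15 of the 16 primed genes, 15 of the 18 germline genes, 7 of the 17 pluripotency genes, 13 of the 30 Polycomb genes and 9 of the 15 NF-κB genes. Among gene families, 7 of 75 voltage-gated channel genes met a gain (9.33%; Cacna1c, Cacna1d, Cacna1e, Cacna2d3, Kcnab1, Kcnh1 and Scnn1g). The name pattern behind that list also takes in Scnn1g, an epithelial sodium channel, and the family's median gene length was 53477 bp. Counts were 10 of 334 solute carrier genes (2.99%), 3 of 86 cadherin genes (3.49%), 1 of 26 glutamate receptor genes (3.85%), 10 of 1123 odorant receptor genes (0.890%), 2 of 358 Zfp genes (0.559%) and 0 of 327 vomeronasal receptor genes.

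**Figure D2:**
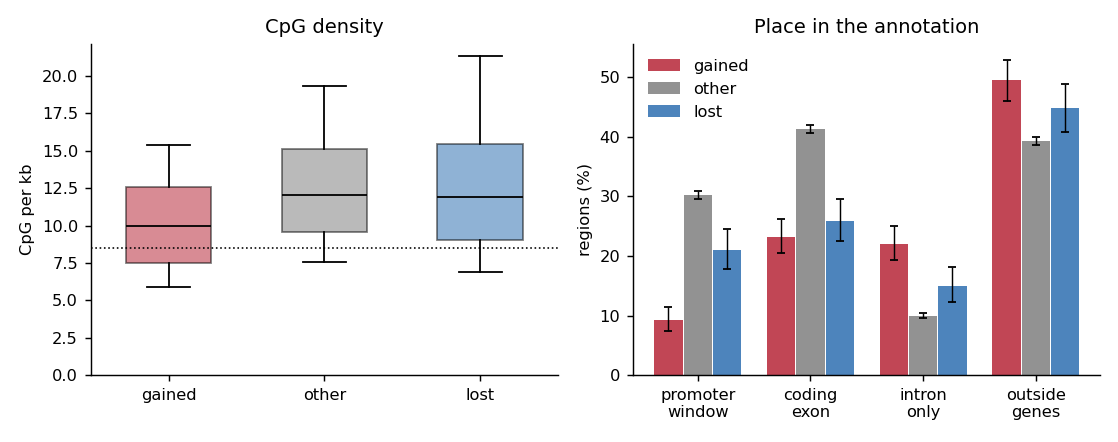
CpG per kb of GRCm38 (left; boxes from the 25th to the 75th percentile, whiskers from the 10th to the 90th, dotted line at the mean of chromosomes 1 to 19) and the percent of regions in each place of the annotation (right; bars with 95% Wilson intervals) for gained, other and lost regions. Gained regions have the lowest median CpG density of the groups, 10.0 per kb, and the smallest share at promoter windows, 9.27%.

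The sequence of the gained regions, which the rule did not use, was low in CpG for H3K27me3 chromatin. Median CpG density was 10.0 per kb in gained, 12.04 in other and 11.9 in lost regions, beside 8.51 over chromosomes 1 to 19. A window of 300 bp with at least 15 CpG was present in 7.66% of gained, 37.8% of other and 21.2% of lost regions, of which the other regions are also wider. Median GC content was 45.3%, 46.6% and 46.5%. Repeats masked in the reference took up a median of 18.2% of a gained region and 19.1% of another region, beside 33.5% of the chromosomes as a whole.

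In WT cells, most of the gained regions carried none of the other modifications measured. A mark was counted as present where at least 1 bp of a gained region was covered in at least 2 of 3 WT libraries. By that measure 522 of 809 regions (64.5%, 95% Wilson interval 61.2 to 67.7) had none of H3K27ac, H3K4me1, H3K9me3 and H3K4me3, against 28.0% of the other and 19.1% of the lost regions. Over all 53730 merged regions the share was 47.8%. Other regions of like width, between 3000 and 8800 bp, gave 39.5%. H3K4me1 was present in 221 gained regions (27.3%), H3K27ac in 137 (16.9%), H3K9me3 in 73 (9.02%) and H3K4me3 in 32 (3.96%). H3K27ac and H3K4me1 occurred together in 126 gained regions (15.6%), and H3K27ac without H3K4me1 in 11. In other regions of like width the shares were 55.3% for H3K4me1, 33.5% for H3K27ac, 10.5% for H3K9me3 and 15.2% for H3K4me3. In the lost regions they were 77.6%, 63.5%, 7.69% and 15.9%, and over all merged regions 46.7%, 30.1%, 10.3% and 11.7%. H3K27ac and H3K4me1 share an antibody number in the labels, whereas the methods give H3K27ac its own, which limits how the pair can be read.

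**Figure D3:**
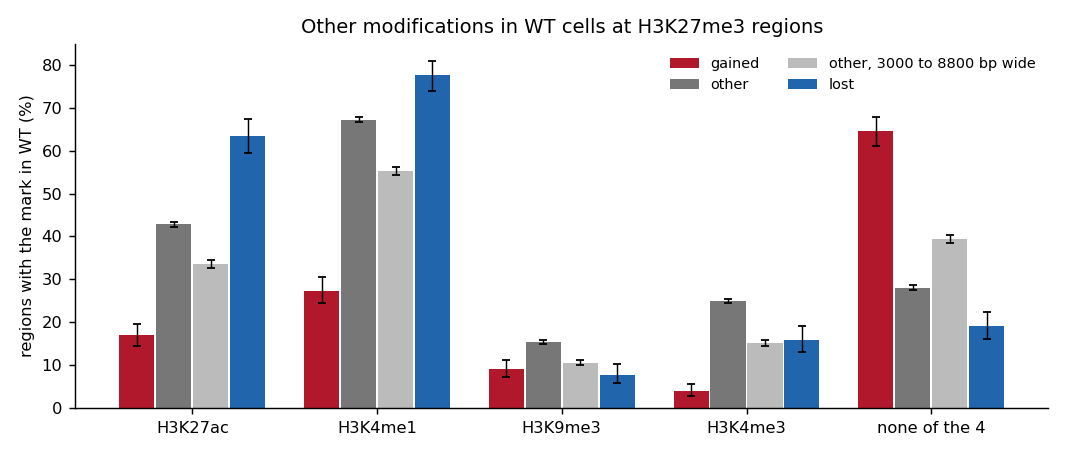
Percent of regions with each modification in WT cells, and with none of the 4, for gained, other, width-limited other and lost H3K27me3 regions; bars are shares and lines their 95% Wilson intervals. Gained regions have the lowest shares of H3K27ac (16.9%), H3K4me1 (27.3%) and H3K4me3 (3.96%) and the highest share without any of the 4 (64.5%).

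The same difference was seen in every library as bases under a call. H3K4me1 calls covered on average 14.1% of the gained and 35.4% of the other sequence, and were lower in the gained regions in 6 of 6 libraries. H3K27ac gave 9.63% and 21.0%, and H3K4me3 gave 0.642% and 2.11%, also lower in 6 of 6. H3K9me3 went the other way, at 3.14% and 2.58%, higher in 6 of 6 libraries. Each of these gave p = 0.0312 in a two-sided exact sign-flip test over the 6 libraries of the mark, the smallest p it can give, and 0.0357 after Benjamini-Hochberg adjustment over 8 comparisons of this kind. Against the lost regions, H3K27ac (52.6%), H3K4me1 (59.7%) and H3K4me3 (3.23%) were again lower in the gained regions in 6 of 6 libraries at the same p, and H3K9me3 was not separated (2.72%, exact p = 0.188). Counted by region and not by base, H3K9me3 was present in fewer gained than other regions (9.02% and 15.3%). Between 3000 and 8800 bp of width the shares were 9.34% and 10.5%. All 6 libraries of a mark read the same fixed sets of regions, so the sign-flip p covers spread between libraries and not between regions. The H3K9me3 excess over the other regions was 0.161 to 0.859 percentage points per library. Single broad regions, such as Trappc9 with 10000 bp covered in WT, weigh on so small a difference, and their part in it was not tested. The sign-flip test was added after the data were seen.

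Among the gained regions, marks differed with the place of the gain. The other regions were not split by place, so these shares have no background beside them. Of the 75 gained regions at promoter windows, 39 carried H3K4me1 (52%), 31 H3K27ac (41.3%) and 22 H3K4me3 (29.3%) in WT cells. Of the 400 outside genes, 81 carried H3K4me1 (20.2%), 44 H3K27ac (11.0%), 4 H3K4me3 (1.00%) and 46 H3K9me3 (11.5%). By called length summed over the KO libraries, the largest gains with H3K27ac included a coding exon of Col14a1 (chr15:55485401-55493800), the window of Olfr9 and CK137956. The rest of these lay outside genes, 196430 bp from Cdh4 and 18865 bp from Clrn3. In that order, H3K27ac covered 1000, 2000, 200, 400 and 2000 bp in WT and 0, 3200, 0, 400 and 2400 bp in KO. The largest with H3K4me1 included Colec12, Pde10a and a region outside genes that also carried H3K9me3 (chr5:119474201-119484600). The gene nearest to that region was Tbx3, a T-box regulator, 186068 bp away, and H3K4me1 covered 200 of the region's 10400 bp in WT. The largest with H3K9me3 included Cd244a and an intron of Atp13a4, where it covered 5600 of 16600 bp and 200 of 9600 bp in WT.

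Imprinted loci were among the gains, at 2 of 27 imprinted genes on the list outside the left-out segments (7.41%), beside 388 of all 19844 protein-coding genes (1.96%), and calls of several marks differed there between the genotypes. Nap1l5 is a paternally expressed gene inside an intron of Herc3, and Peg13 is a paternally expressed non-coding RNA inside an intron of Trappc9. The Nap1l5 region (chr6:58904601-58910400) spans the gene and its CpG-rich start, printed above. H3K27me3 calls covered 5800, 5400 and 3600 of its 5800 bp in KO 1, 2 and 3, with 273 over 101, 256 over 99 and 205 over 73 ChIP over input reads. H3K9me3 calls covered all 5800 bp in each WT library and 0 bp in each KO library. The WT calls, counted whole and so able to reach past the region, held 1590 over 405, 1328 over 410 and 1276 over 352 reads. H3K4me1 covered 0 bp in each WT library and 2200, 2200 and 2000 bp in the KO libraries. H3K4me3 covered 225, 235 and 364 bp in WT and 422, 636 and 502 bp in KO, so the groups did not overlap, and H3K27ac was called in no library.

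The Trappc9 region (chr15:72803401-72813400) contains Peg13, which runs from 72805600 to 72810324 on the reverse strand. H3K27me3 calls covered 6000, 6200 and 6200 of 10000 bp in KO 1, 2 and 3, with 139 over 119, 178 over 113 and 171 over 120 reads. H3K9me3 covered all 10000 bp in each WT library and 8600, 7600 and 7400 bp in KO. The ChIP reads of those H3K9me3 calls were 1526, 1453 and 1352 in WT and 598, 414 and 447 in KO. These counts take in the whole calls, which can reach past the region, and are not scaled for call length or library depth. In an edgeR fit over all H3K9me3 regions called in 6 libraries, with called length as an offset, H3K9me3 there fell by 0.69 on the log2 scale (SE 0.09, Benjamini-Hochberg adjusted p = 0.00356), where 0.0867% of all 25381 regions in that fit fell and 0.307% rose. H3K4me1 covered 0 bp in every WT library and 6600, 7800 and 7400 bp in KO. H3K27ac covered 0 bp in every WT library and 1800, 1800 and 1400 bp in KO. H3K4me3 called in at least 2 of 3 libraries covered 161 bp in WT and 953 bp in KO. Nap1l5 had no H3K9me3 call in KO and so entered no read count fit, and the Trappc9 region entered only the fit with the offset. A smaller gain in another intron of Trappc9 (chr15:72643401-72647800) had none of the 4 marks in any library.

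**Figure D4:**
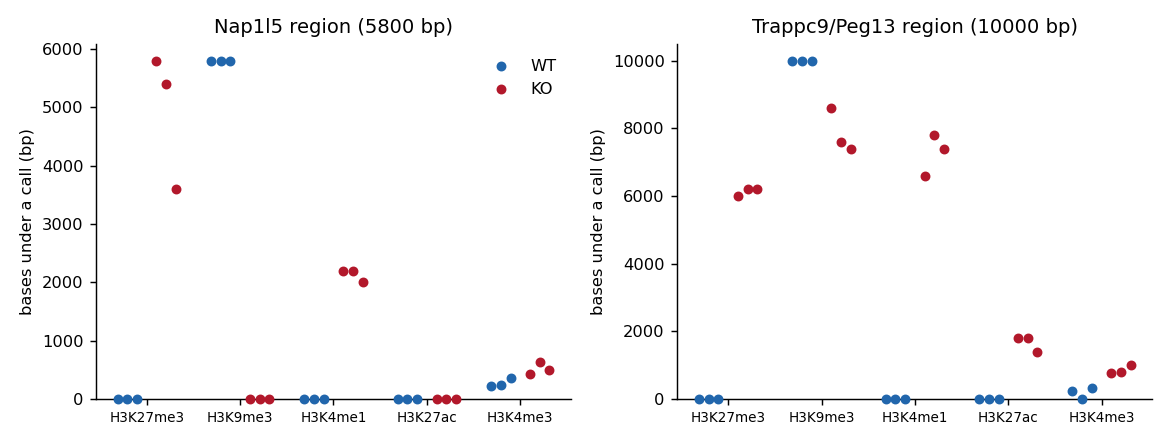
Bases under a call of each modification in the 3 WT (blue) and 3 KO (red) libraries at the gained regions of Nap1l5 and of Trappc9 with Peg13; each point is a library. At Nap1l5 H3K9me3 covers 5800 bp in every WT library and 0 bp in every KO library, and at both loci H3K4me1 is called in KO libraries alone.

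Broad H3K9me3 cover was rare. With Nap1l5 and Trappc9 included, H3K9me3 covered at least 50% of 18 gained regions in WT cells (2.22%), against 0.779% of the other and 1.51% of all merged regions, and of 11 gained regions in KO cells. In 3 of the 18 no base remained in the KO consensus: Nap1l5, a region nearest to Tmem174 (chr13:98617201-98618800) and a region nearest to Rbms3 (chr9:117638001-117642400). Others kept it, such as a region nearest to Tspan5 (chr3:138651401-138656600), fully covered in both genotypes. These examples were picked after their values were seen. Over all 809 regions, H3K9me3 was present in WT alone in 29, in KO alone in 4 and in both in 44. Presence in WT alone was thus seen in 3.58% of gained regions, 4.76% of other regions and 3.41% of all merged regions, so the gained share was near that of all regions.

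Over the gained regions as a whole, calls of H3K27ac, H3K4me1 and H3K9me3 covered less sequence in KO than in WT cells, with no overlap between the groups. H3K27ac covered 9.95%, 9.87% and 10.4% of the gained bases in WT 1 to 3 and 8.83%, 9.43% and 9.29% in KO 1 to 3, a difference of -0.897 percentage points. H3K4me1 covered 15.1% ± 0.0643 in WT and 13.2% ± 0.240 in KO (SD, n = 3), a difference of -1.90. H3K9me3 covered 3.78%, 3.68% and 3.37% in WT and 2.86%, 2.70% and 2.44% in KO, a difference of -0.944. H3K4me3 covered 0.592% ± 0.0707 in WT and 0.691% ± 0.0571 in KO (SD, n = 3), with overlapping groups. The two-sided exact permutation test gave p = 0.1 for the first 3, the smallest that 3 against 3 libraries can give (adjusted p = 0.133), and exact p = 0.2 for H3K4me3, so none could pass 0.05. With the same number of top-ranked H3K27ac calls taken from every library, the H3K27ac difference was 0.00732.

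**Figure D5:**
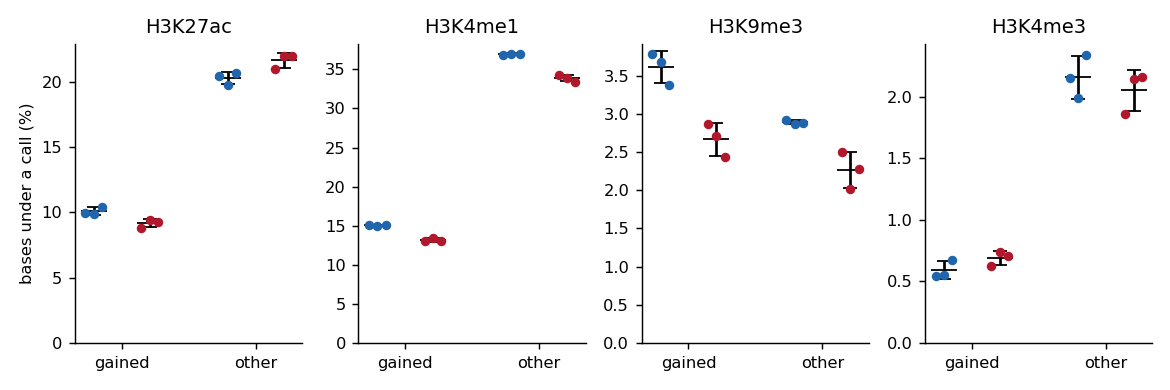
Percent of bases of gained and other H3K27me3 regions under a call of each modification, with 1 point per library (WT blue, KO red) and the mean ± SD as black bars. In gained regions the KO points of H3K27ac, H3K4me1 and H3K9me3 lie under all WT points, and in other regions H3K27ac lies higher in KO.

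Part of this was shared with the rest of the H3K27me3 chromatin. In the other regions H3K4me1 went from 37.0% to 33.9% and H3K9me3 from 2.89% to 2.26%, while H3K27ac went from 20.3% in WT to 21.7% in KO. Relative to the other regions, the KO-minus-WT difference of the gained regions was -2.26 percentage points for H3K27ac and 1.18 for H3K4me1 (exact permutation p = 0.1 each, adjusted p = 0.2). It was -0.318 for H3K9me3 and 0.205 for H3K4me3 (exact permutation p = 0.2 each, adjusted p = 0.2). None of these passed 0.05, which the design could not reach. These are differences in percentage points between groups of unlike starting cover. H3K4me1 began at 15.1% of the gained bases in WT and 37.0% of the other bases. Its value of 1.18 thus does not mean a smaller fall in proportion.

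Changes in read counts could be tested where a mark was called at like length in all 6 libraries. Such a region met a gained region in 39 cases for H3K27ac, 70 for H3K4me1 and 4 for H3K9me3. By edgeR's quasi-likelihood test with Benjamini-Hochberg adjustment, H3K27ac fell in 20 of the 39 and rose in 4, where 26.3% of all 4010 tested regions fell and 26.7% rose. The median log2 fold change was -0.08 over the 39 and -0.00 over all tested. H3K4me1 fell in 24 of the 70 and rose in 8, where 20.2% of all 10855 fell and 23.5% rose, with a median of -0.06. H3K9me3 fell in 1 of the 4, where 7.75% of 2929 fell and 6.96% rose. The splits moved with the scaling. Without TMM they were 27 lower and 2 higher for H3K27ac, beside 36.4% lower and 18.4% higher over all tested regions, and 39 lower and 5 higher for H3K4me1, beside 32.7% and 16.3%. H3K9me3 then had 1 lower and 0 higher of 4, beside 6.56% and 8.06%. With length as an offset over all regions called in 6 libraries they were 35 lower and 0 higher of 124 for H3K27ac, beside 18.7% lower and 3.04% higher over all 23580 regions. For H3K4me1 they were 2 lower and 8 higher of 203, beside 0.79% and 7.54% of all 44031, so its direction was not stable. With the offset, H3K4me1 rises outnumbered falls at the gained regions and over all regions, which was not so at the gained regions in the first fit. The tested H3K27ac regions were broad, with a median of 44400 bp, and the gained H3K27me3 was often a short stretch within them. Whether the fall lay at that stretch was not tested.

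In the test limited to regions of like called length, the largest falls of H3K27ac lay around Bnip3, a mitophagy receptor induced by hypoxia, and Lgi1, a secreted neuronal protein. The H3K27ac region over Bnip3 (chr7:138896401-138914400) had 88.0, 90.3 and 84.1 CPM (reads scaled by TMM-adjusted library totals) in WT and 59.3, 66.0 and 59.9 in KO, so every KO library lay lower. It fell by 0.50 on the log2 scale (SE 0.06, edgeR adjusted p = 1.60e-07), and H3K4me1 over Bnip3 fell by 0.27 (SE 0.04, edgeR adjusted p = 5.50e-06). The H3K27ac region that includes Lgi1 (chr19:38307001-38360600) fell by 0.43 (SE 0.03, edgeR adjusted p = 3.77e-11), and its gained H3K27me3 took up 3400 bp of 53600. H3K27ac around Gtpbp6, Plcxd1 and Zfp605 fell by 0.38, over Eno4 and Shtn1 by 0.30, and over Ccl1, a chemokine gene, by 0.23. With length as an offset, the H3K27ac falls at Bnip3 (0.38), Lgi1 (0.33) and Gtpbp6 (0.36) still passed, while Eno4 (edgeR adjusted p = 0.112) and Ccl1 (edgeR adjusted p = 0.0523) did not. That fit also held larger H3K27ac falls, of 0.76 over the gain in Ank2 and 0.58 over the gain in Plac8, at regions whose called length differed between libraries. Both were chosen after their values were seen. H3K4me1 fell by 0.33 at the window of Tmem131l and rose by 0.28 in Kif26b (chr1:178732001-178737200), whose gained region starts at 178730401. The 3 H3K4me1 calls at Bnip3 (edgeR adjusted p = 0.303), Tmem131l (0.438) and Kif26b (0.0504) were lost with the offset. The single H3K9me3 fall lay in Frmd5 (chr2:121634401-121642400). It had 183.5, 164 and 184 CPM in WT and 128, 113 and 110 in KO, and fell by 0.60 (SE 0.08, edgeR adjusted p = 8.81e-05; 0.0935 with the offset). H3K9me3 calls covered 88.5% of that gained region in WT and 92.3% in KO.

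Few gains met a full switch of another mark. Regions called in 3 of 3 WT and 0 of 3 KO libraries overlapped 8 gained regions for H3K27ac, 8 for H3K4me1, 7 for H3K9me3 and 0 for H3K4me3. These were 0.989%, 0.989%, 0.865% and 0% of the gained regions, beside 1.93%, 1.31%, 0.865% and 0.743% of the other regions. The reverse pattern overlapped 2, 6, 0 and 1 gained regions. These were 0.247%, 0.742%, 0% and 0.124% of the gained regions, beside 0.883%, 0.607%, 0.0860% and 0.521% of the other regions. H3K27ac regions of the WT pattern lay at gained regions in Slit3, a guidance ligand, in Col14a1 and in C530008M17Rik (chr5:76699401-76709000), where H3K27me3 read 200 over 92, 41 over 20 and 212 over 134 in KO 1, 2 and 3. The Slit3 region met an H3K4me1 region of the WT pattern as well. These genes were chosen after their values were seen.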

How the data were processed

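ChIP-seq calls of 5 modifications were used as the authors deposited them, with coordinates in GRCm38. Per the methods and the submitters' processing notes, reads were trimmed (Trim Galore 0.6.6), aligned (Bowtie2 2.4.4) and filtered, and broad marks were called per library against input with epic2 (noted as SICER 0.0.52) and H3K4me3 with MACS2 2.2.7.1; processing of H3K9me3 is not given in the sources used here. The deposited epic2 lists give the count of ChIP and input reads, a p-value, an FDR, a log2 fold change and a score per region. The deposited MACS2 lists give a score, a fold enrichment ratio and −log10 p and q. Calls had an FDR under 0.05. At equal coordinates, input counts of libraries 1 and 2 of a genotype differed by at most 3 reads, so 1 input served each genotype.

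The members and gene lists were chosen with earlier results of these data known. H3K27ac, H3K4me1 and H3K9me3 counts were tested with edgeR 4.0.16 (TMM, quasi-likelihood, R 4.3.3) in regions called in all 6 libraries whose shortest called length was at least 0.8 of the longest. SEs are the log2 fold change over the root of F. On simulated counts with 1.5-fold changes, 99% to 100% were recovered, with 12, 15 and 7 false calls for H3K27ac, H3K4me1 and H3K9me3. All regions were simulated with the same dispersion and no difference in called length, so these false calls do not measure those in the real counts. Most called changes at gained regions were smaller than those simulated. For H3K27ac 17 of 24, and for H3K4me1 26 of 32, lay under 0.2 on the log2 scale. Recovery at that size was not tested. DESeq2 was an alternative. Named regions were the 10 longest, the 10 steepest, the longest with each mark or at promoters, called count regions and members of the gene lists. Intervals were handled in Python 3.11.15. One region that this rule names is not reported here.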

Additional observations from a re-analysis of the deposited data

How the results depend on the processing

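The number of gained regions was 809. It was 403 without those that had a WT call within 5000 bp, and 1249 to 1902 when any 1 H3K27me3 library was left out, which loosens the rule by construction. The WT shares moved with the definition. Sequence covered in 3 of 3 WT libraries gave 13.2% for H3K27ac, 23.5% for H3K4me1 and 5.93% for H3K9me3; any WT library gave 22.0%, 33.3% and 14.5%. At least 50% of the region covered gave 10.9%, 16.7%, 2.22% and, for H3K4me3, 0.371%. Leaving out 1 WT library gave 14.2% to 15.0% for H3K27ac and 6.43% to 7.29% for H3K9me3. The KO-minus-WT difference of covered bases turned sign for H3K27ac with equal numbers of top-ranked calls (0.00732), and, relative to other regions and counted as regions with any call, for H3K4me1 (-0.495) and H3K9me3 (0.300); the cause was not tested. Read count calls with length as an offset numbered 10 for H3K4me1 and 2 for H3K9me3, and H3K9me3 had 3 with members at FDR under 0.01. Of 167 alternative values, 130 kept their direction and lay within 1.5 times the reported value, and 10 kept the direction but not the size. Those 10 included, counted as regions with any call, H3K27ac relative to other regions (-0.0469), H3K9me3 (-2.97) and H3K4me3 (0.330), and H3K27ac in members under FDR 0.01 (-0.380).

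Same-numbered WT and KO libraries share only a number: their deviations correlated at -0.08 to 0.03 over tested regions. With replicate number as a block (replicate block), H3K27ac had 21 calls, H3K4me1 34 and H3K9me3 1, and the differences of covered bases were -0.897, -1.90, -0.944 and 0.0997, with an exact sign-flip p of 0.25, the smallest that 3 pairs allow. Depth limits the H3K27me3 values: a median of 57 to 68 input reads per region leaves single ratios imprecise, and a region without a WT call may hold WT signal under the caller's threshold.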
